A study of Mus musculus with 6 samples.

Results

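Clusters of H3K27ac-marked regions that lie away from promoters were described in mouse retina. All peaks of 6 lists were merged on the autosomes, X and Y into 39942 regions. Regions covered in 2 or more lists were kept when no annotated transcription start site (TSS, GENCODE vM21, GRCm38) lay within 2.5 kb of an edge. Kept regions separated by gaps of at most 12.5 kb were stitched, and a stitched unit made of 3 or more kept regions was called a cluster. The 9343 kept regions gave 6655 stitched units, of which 534 (8.02%) were clusters. These clusters held 1859 kept regions (19.9% of those kept). Members were thus chosen by the positions of the peak calls and by the number of lists that held them, so their number and the nearness of their regions are a description and not a finding.

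H3K27ac is acetylation of lysine 27 of histone H3, a mark of active promoters and active enhancers. Dense groups of marked enhancers, called super-enhancers when ranked by signal, often lie beside genes that define a cell type. In retina, rods are the most numerous neurons. Their genes are driven by factors such as CRX, a homeodomain protein, and NRL, a leucine zipper protein. The clusters here were set by distance alone and were not ranked by signal, so the name super-enhancer was not applied to them.

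Bulk retina was taken from WT mice that were 3-month-old at the first pressure elevation. The 3 4xIOP samples came from eyes held at 30 mmHg intraocular pressure (IOP) for 1 h, in a biweekly schedule, 4 times in all. The 3 control samples came from the untreated contralateral eyes. Collection followed on day 2 from the last elevation in both groups, and chromatin of 1 eye each was precipitated with antibody ab4729. A control eye thus belonged to an animal that had a pressure-treated eye, and the labels do not say which eyes came from the same animal. The treatment protocol shared by the labels also mentions dasatinib and vehicle injections, which the study describes for a separate experiment in older mice and not for repeated elevation. All samples hold the whole retina, in which fewer cells of a type and less mark per cell cannot be told apart.

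The lists held 16195 to 36509 peaks on these chromosomes. Control 3 was the longest list and 4xIOP 3 the shortest. Names inside 4 of the 6 lists were those of the other group. These were control 1, control 2, 4xIOP 1 and 4xIOP 2, while control 3 and 4xIOP 3 carried names that matched their labels. The groups below follow the labels, and every direction holds only as labelled. Promoters of all 5 rod marker genes had a peak in every list, while those of 4 microglia and 4 pigment epithelium markers had none in any list. Of 3 cone markers 0 to 1 were marked, of 4 bipolar markers 0 to 4, of 4 Muller glia markers 1 to 2 and of 4 ganglion cell markers 0 to 1.

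The sequences below are the 200 bp around the median summit of the strongest region of clusters on which the results turn, on the + strand of GRCm38. The Btg2 window was chosen after the data were seen because it holds a match to TGANTCA, a looser form of the AP-1 site. Capitals mark every match, on either strand, to any of the 13 motifs searched, which are given with their shares at the end. The windows beside Pdia4 and Prph2 hold none of these letters.
Pdia4 cluster, chr6:47753250-47753449, intergenic, the strongest region of the cluster with the most regions: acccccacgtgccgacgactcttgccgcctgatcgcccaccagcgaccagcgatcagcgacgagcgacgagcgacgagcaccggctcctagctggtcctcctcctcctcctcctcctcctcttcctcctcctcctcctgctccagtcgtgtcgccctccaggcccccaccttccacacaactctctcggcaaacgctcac
Dusp7 cluster, chr9:106418282-106418481, intergenic, the strongest region of the widest cluster: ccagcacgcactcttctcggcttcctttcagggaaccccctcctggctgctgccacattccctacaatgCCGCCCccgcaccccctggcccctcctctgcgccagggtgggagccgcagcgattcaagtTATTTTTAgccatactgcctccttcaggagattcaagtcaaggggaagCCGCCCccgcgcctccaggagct
Prph2 cluster, chr17:46904262-46904461, intergenic: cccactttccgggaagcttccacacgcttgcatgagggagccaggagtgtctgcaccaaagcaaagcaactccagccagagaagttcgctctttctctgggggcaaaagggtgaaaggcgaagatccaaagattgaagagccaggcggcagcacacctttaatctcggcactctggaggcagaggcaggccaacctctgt
Mef2d cluster, chr3:88139142-88139341, intergenic: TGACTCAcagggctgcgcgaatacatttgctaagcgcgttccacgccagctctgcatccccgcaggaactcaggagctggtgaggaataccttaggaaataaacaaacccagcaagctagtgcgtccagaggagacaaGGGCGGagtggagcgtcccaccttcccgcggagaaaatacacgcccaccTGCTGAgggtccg
Prkca cluster, chr11:108297709-108297908, in an intron: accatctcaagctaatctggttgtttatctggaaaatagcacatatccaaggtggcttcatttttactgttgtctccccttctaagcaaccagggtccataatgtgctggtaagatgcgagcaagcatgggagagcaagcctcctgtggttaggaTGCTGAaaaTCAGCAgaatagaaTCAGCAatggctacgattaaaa
Btg2 cluster, chr1:134061281-134061480, intergenic: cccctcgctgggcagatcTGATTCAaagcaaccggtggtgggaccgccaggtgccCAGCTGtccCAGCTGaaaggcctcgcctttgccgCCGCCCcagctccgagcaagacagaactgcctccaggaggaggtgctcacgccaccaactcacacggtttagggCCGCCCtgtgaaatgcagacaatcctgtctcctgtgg

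Most clusters were small. Of the 534 clusters, 381 (71.3%) had 3 kept regions, 94 had 4 and 59 had 5 or more. Their span ran from 1.31 to 47.4 kb with a median of 10.3 kb, and the kept regions covered a median of 21.4% of it. A median cluster therefore held 2.03 kb of marked sequence in separate pieces. At the lower edge of the rule, the 1363 units of 2 regions had a median span of 1.70 kb and the 381 units of 3 regions one of 8.58 kb. In both, a like share of regions was called in all 6 lists, 22.7% for units of 2 and 22.9% for units of 3.

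Clusters lay mainly inside genes. In all, 319 (59.7%) were contained in a protein-coding gene and 147 overlapped none. The nearest protein-coding TSS was a median of 20.4 kb away, with 410 clusters within 50 kb and 486 within 100 kb. Introns held 64.3% of the cluster regions, exons 4.36% and intergenic sequence 31.4%. These shares were close to the 62.6%, 6.35% and 31.1% of the 7484 kept regions outside clusters. A TSS could still lie between 2 regions of a cluster, and 51 clusters spanned one. The clusters had 497 different nearest genes, and 34 genes were nearest to more than 1 cluster. Gse1, Atp8a2 and Dpf3 were each nearest to 3 clusters, and because clusters of 1 gene share a neighbourhood they are not independent of each other. Chromosome 11 held 52 clusters, chromosome 2 held 42 and chromosome 4 held 40, while X held 7 and Y held 3.

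In base composition the cluster regions lay close to other distal regions and below TSS-near regions. Median GC content of the 200 bp windows was 51.5% in clusters, 51% in other kept distal regions and 64.5% in the 15645 TSS-near regions covered in 2 or more lists. The ratio of observed to expected CpG had medians of 0.201, 0.209 and 0.728 in these sets. Repeat-masked bases made up a mean of 16.4% of cluster windows and 16.6% of other distal windows.

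In every list, cluster regions combined a high fragment pile-up with a low fold enrichment. Pile-up is the number of fragments at the summit divided by the mean background of the genome in that list. Fold enrichment is the summit set against a local background. Median pile-up in cluster regions was 18.7, 12.4 and 22.3 in control 1, 2 and 3, against 11.9, 8.58 and 13.0 in other distal regions. In 4xIOP 1, 2 and 3 it was 19.4, 19.8 and 12.9, against 12.9, 12.7 and 9.35. Control 2 and 4xIOP 3 had the lowest pile-up of their groups in both kinds of region. Median fold went the other way. It was 2.96, 2.89 and 3.01 in the control lists for cluster regions, against 3.62, 3.37 and 3.75 for other distal regions. For 4xIOP it was 2.97, 3.00 and 3.16 against 3.58, 3.57 and 3.68. The local background, in units of the genome mean, was 3.71 to 7.03 in cluster regions and 2.14 to 3.19 elsewhere. In 2.28% to 6.54% of the peaks of a list that background was the genome mean. In all others it was a whole number of fragments in 10 kb of the same library, within 0.02 fragments, so a window on a cluster region can take in its neighbours. The order of both measures was the same in 6 of 6 lists, and neither was tested because the same calls chose the clusters.

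**Figure D1:**
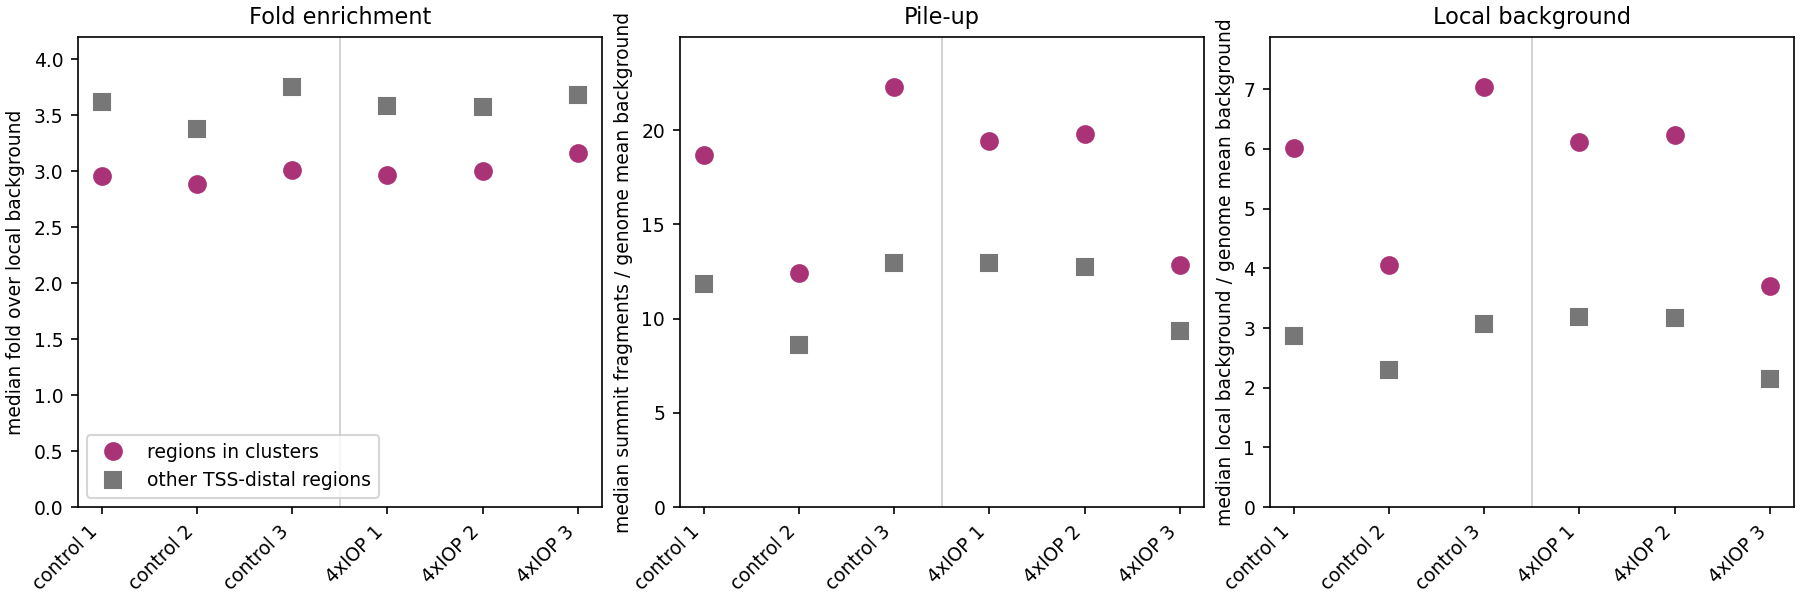
Median fold enrichment (left, no unit), summit pile-up (middle) and local background (right, both in units of the genome mean background) of regions in clusters (circles) and other TSS-distal regions (squares) in each of the 6 lists. In all 6 lists the circles lie below the squares for fold (2.89 to 3.16 against 3.37 to 3.75) and above them for pile-up and local background.

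By the number of regions, the leading cluster was intergenic. It held 17 regions over 40.3 kb at chr6:47737933-47778243, 35.2 kb downstream of the TSS of Pdia4, which encodes a disulfide isomerase of the endoplasmic reticulum. Its 17 regions were short, 193 to 621 bp, and 5 of them were called in all 6 lists. Among the regions of the Pdia4 cluster, the highest pile-up was 23.3, 23.4 and 36.0 in the control lists and 24.4, 23.6 and 22.2 in the 4xIOP lists. On the scale relative to each list's median cluster, introduced further on, it stood at 1.00, 1.52 and 1.08 in control and at 1.04, 0.93 and 1.63 in 4xIOP, so that control 2 and 4xIOP 3 were high. On average 31.7% of its marked bases were repeat-masked.

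Next came the cluster beside Dusp7, which encodes a phosphatase of MAP kinases. It was the widest, with 9 regions over 47.4 kb at chr9:106371427-106418873. Another 9 regions lay in the cluster of Prph2, which encodes a structural protein of the photoreceptor outer segment, over 29.3 kb at chr17:46904150-46933429. Its first region ended 5.86 kb upstream of the Prph2 TSS, and the cluster ran across the gene and beyond it. The cluster in Cerkl, a gene tied to inherited retinal degeneration, had 8 regions over 24.0 kb, and a smaller cluster was also nearest to Cerkl. Clusters nearest to Ccnq, Sla2, Nr4a1 and Mok had 7 regions each. Those nearest to Srpk2, H3f3a, Chd2 and Gm47283 had 6 each. Gm47283 lies in the pseudoautosomal region of chromosome Y, where 40.9% of the marked bases were repeat-masked, and its values may share reads with X.

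The lists with the highest shares of genes near a cluster were those of photoreceptors and of early response genes. A gene was counted as near when a TSS lay within 100 kb of a cluster, which held for 1572 of 21938 protein-coding genes (7.17%). Of 24 rod phototransduction genes 8 (33.3%) were near, and of 18 photoreceptor transcription factors 5 (27.8%). Of 24 outer segment and retinal disease genes 6 (25%) were near. The rod genes near a cluster included Gnat1, Gnb1, Slc24a1, Sag, Guca1a, Guca1b and Rdh12. Guca1a and Guca1b lie side by side, so both counts come from 1 neighbourhood. The transcription factor genes were Esrrb, Mef2d, Neurod1, Prdm1 and Casz1. None of the 12 cone phototransduction genes was near, nor any of 21 amacrine and horizontal cell genes, 15 microglia genes or 12 pigment epithelium genes. Counts in the other neural and glial lists were small, with 3 of 20 for bipolar cells, 2 of 20 for retinal ganglion cells (Thy1 and Nefh) and 1 of 24 for Muller glia (Clu). The lists were chosen with results of these data known, and no test was run on them.

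**Figure D2:**
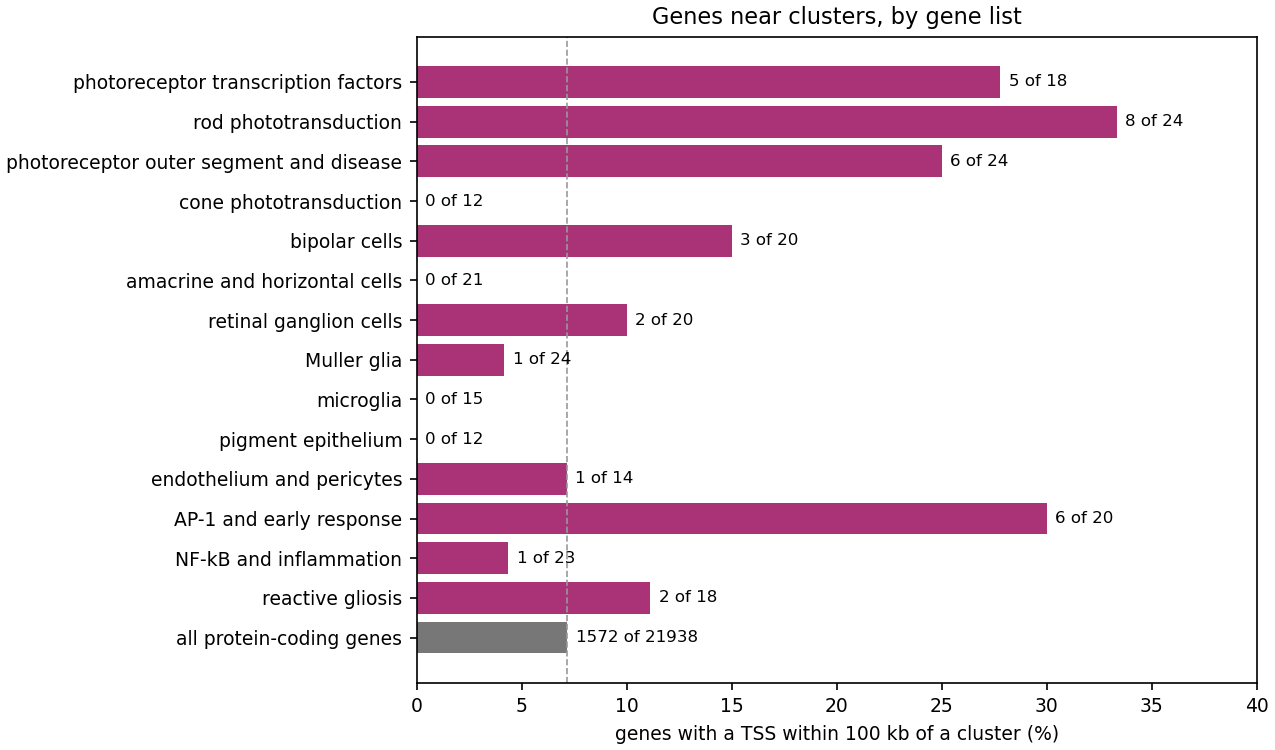
Percentage of the genes of 14 lists, and of all protein-coding genes (grey bar, dashed line), with a TSS within 100 kb of a cluster, with the count beside each bar. The 3 photoreceptor lists without cone phototransduction reached 25% to 33.3% and the AP-1 and early response list 30%, against 7.17% of all genes.

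Pile-up differed between the lists as a whole. Values of single clusters were therefore divided by the median highest pile-up over the 366 clusters that had a peak in every list, which was 23.3, 15.4 and 33.4 in the control lists and 23.4, 25.4 and 13.6 in the 4xIOP lists. Control 2 and 4xIOP 3 again had the lowest medians of their groups.

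The Prph2 cluster was uneven over the lists. In control its highest relative pile-up was 1.53, 1.60 and 1.60, and in 4xIOP it was 1.89, 1.93 and 0.77. The low value belonged to 4xIOP 3, in which 1 of the 9 Prph2 regions had a peak, while control 3 had a peak in all 9. Tulp1, which encodes a protein of photoreceptor transport, stood at 1.55, 1.50 and 1.38 in control and at 1.51, 1.46 and 1.80 in 4xIOP. The Prom1 cluster, at a gene for a protein of disc membranes, had 1.22, 1.17 and 1.07 in control and 1.02, 1.04 and 1.17 in 4xIOP. Each of these ranges overlapped between the groups, and at Prom1 control 1, control 2 and 4xIOP 3 lay above the other lists. Among 15 clusters nearest to a gene of the photoreceptor lists, 12 had a peak in every list. The clusters at Crb1 and Impg2, genes mutated in retinal dystrophies, were among the other 3, and both lacked a peak in 4xIOP 3.

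Among the transcription factor genes, Mef2d encodes a MADS box factor active in photoreceptors. The Mef2d cluster had 4 regions on both sides of its TSS, with relative pile-up at 1.61, 1.90 and 1.67 in control and 1.51, 1.72 and 1.60 in 4xIOP. Casz1 encodes a zinc finger factor, and its cluster lay inside the gene with 1.55, 1.75 and 1.62 in control and 1.36, 1.61 and 1.43 in 4xIOP. Esrrb encodes an orphan nuclear receptor found in rods. Its intronic cluster ranged more widely, with 1.47, 1.54 and 1.13 in control and 0.77, 1.46 and 1.20 in 4xIOP. Prdm1, a factor that sets photoreceptor against bipolar fate, had a cluster 70.3 kb upstream that was low in all 6 lists, at 0.60 to 0.78 in control and 0.55 to 0.61 in 4xIOP. For bipolar cells, Prkca, which encodes a protein kinase C of rod bipolar cells, had an intronic cluster at 0.86 to 1.04 in control and 0.87 to 1.11 in 4xIOP. All 5 of these overlapped between groups in relative pile-up. In fold rank, as a percentile of the list's peaks, Prdm1 stood at 83.7, 64.9 and 74.9 in control and at 39.2, 59.2 and 43.3 in 4xIOP, and the groups did not overlap (limma adjusted p = 0.97).

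The other list with a share of this size held early response genes. AP-1 is a dimer of FOS and JUN family proteins made soon after a stimulus. Of 20 AP-1 and early response genes, 6 (30%) were near a cluster, namely Fos, Fosb, Egr1, Nr4a1, Ier3 and Btg2. By contrast 1 of 23 NF-kB and inflammation genes (Csf1) and 2 of 18 reactive gliosis genes (Fgf2 and Cp) were near. The Fos cluster, 8.70 kb upstream of the gene, was 1 of 4 clusters in which every region was called in all 6 lists. Its relative pile-up was 1.71, 1.15 and 1.24 in control and 1.51, 1.61 and 1.40 in 4xIOP. Fosb had 1.53, 0.75 and 0.88 in control and 1.57, 1.17 and 1.09 in 4xIOP. Btg2, an antiproliferative gene induced by stress, was at 1.98, 1.73 and 1.78 in control and 1.70, 1.72 and 1.77 in 4xIOP. These groups all overlapped too.

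For Nr4a1 and Fgf2 the lists fell apart in another way. Nr4a1 encodes an orphan nuclear receptor induced by activity. In the control lists its cluster stood at 1.31, 1.33 and 0.90 on the relative scale, and in the 4xIOP lists at 0.89, 0.54 and 1.31. Fgf2 encodes a growth factor that retina makes after injury, and its intronic cluster at chr3:37354246-37365703 had 1.33, 1.29 and 0.42 in control and 0.38, 0.46 and 1.43 in 4xIOP. In both clusters control 1, control 2 and 4xIOP 3 were high and control 3, 4xIOP 1 and 4xIOP 2 were low. The high lists are the 3 that carry the name of the pressure group inside them, and the low ones carry the name of the control group. For Fgf2 the first of its 3 regions had a pile-up of 31.0, 19.8 and 6.9 in control, no peak in 4xIOP 1 and 4xIOP 2, and 19.5 in 4xIOP 3. For Nr4a1, regions 4 and 5 of its 7, which lie 3.65 and 4.57 kb from a TSS, had a peak in control 1 and control 2 alone. Of the other 9 clusters plotted, Prph2 divided the lists in the same way with the order turned, by a margin that rounds away (1.60 in control 2 and in control 3), and the other 8 did not divide them so. The division was seen in other clusters too. Of the 366 clusters with a peak in every list, the 3 lists named for pressure all lay above the other lists in 70 (19.1%) and all below them in 35 (9.56%). Over all 1719 stitched units with a peak in every list the shares were 16.9% and 10.5%. By the labels, all 3 4xIOP lists lay above the control lists in 17 (4.64%) and below them in 14 (3.83%), against 5.29% and 3.08% of all units. Control 2 and 4xIOP 3, both named for pressure, also had the lowest median pile-up, and the part of that in the division was not tested. Fragment length, taken from the shortest peak, was 187 to 195 bp in control 2, control 3 and 4xIOP 3. It was 220 to 232 bp in control 1, 4xIOP 1 and 4xIOP 2, and its part in the division was not tested. The division was noticed after the values were seen, no test was run on it, and the comparisons of the groups follow the labels.

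**Figure D3:**
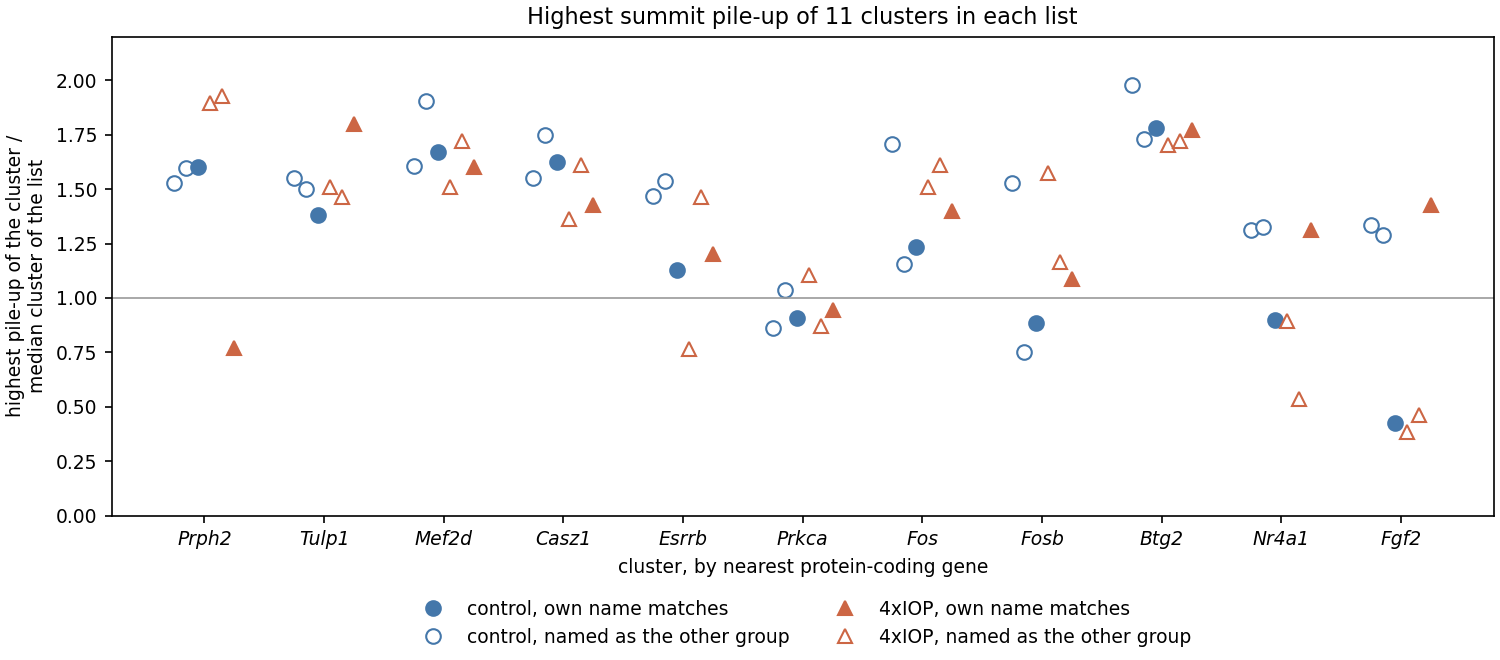
Highest summit pile-up of 11 clusters in each list, divided by the median highest pile-up of the clusters of that list (vertical axis, no unit; the line marks 1), with control as circles, 4xIOP as triangles and open symbols for lists that carry the other group's name. Groups overlap for all 11 clusters, and for Nr4a1 and Fgf2 control 1, control 2 and 4xIOP 3 lie above the other lists.

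**Figure D4:**
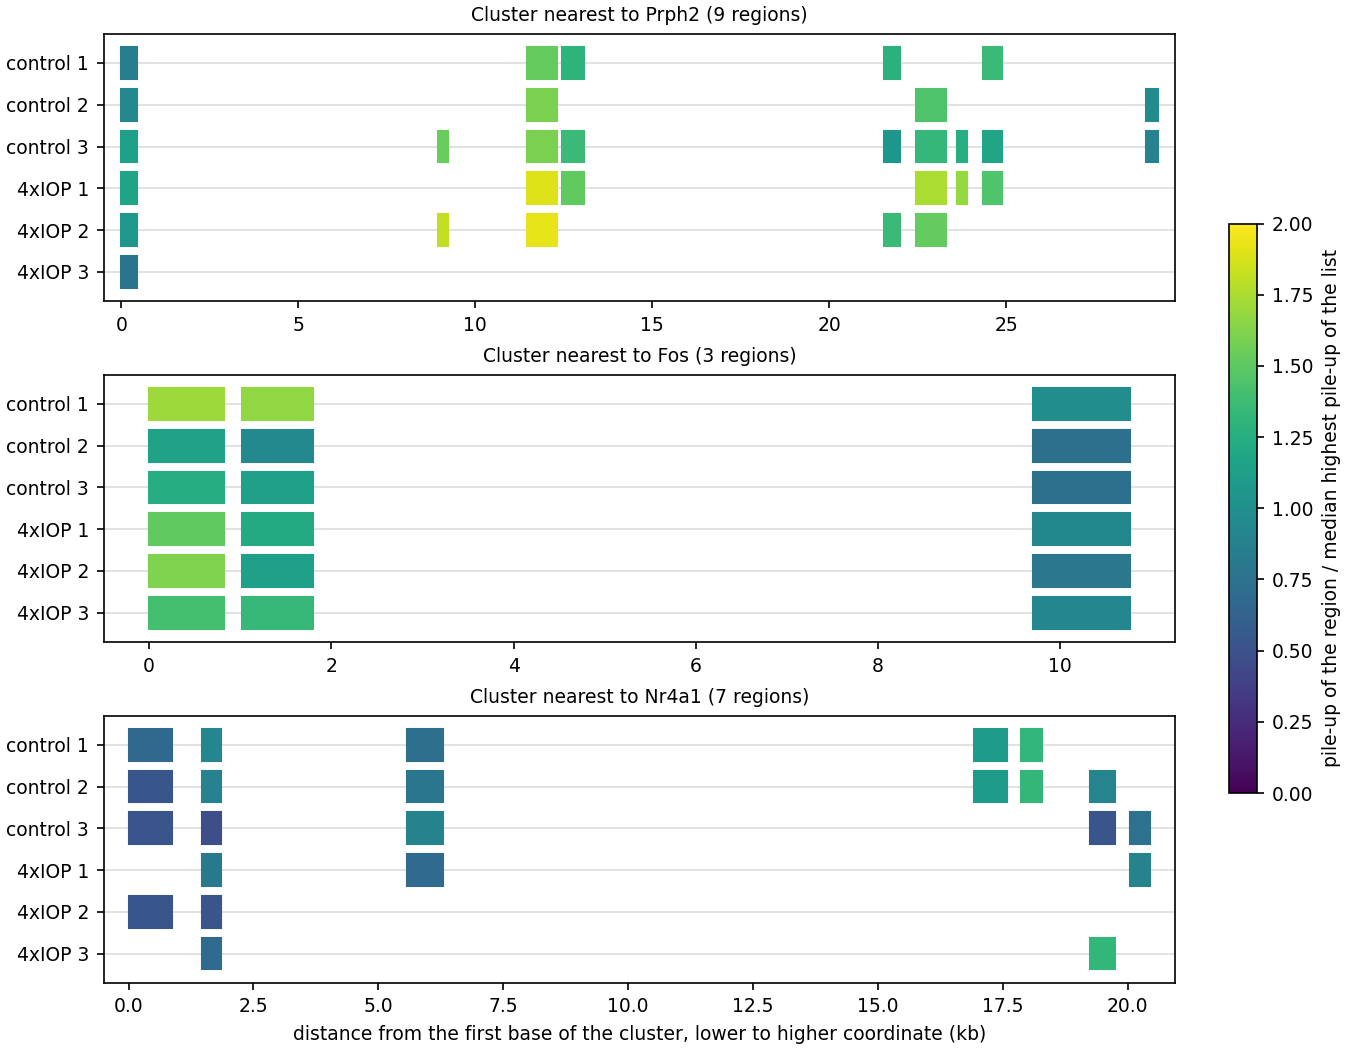
Regions of the clusters nearest to Prph2, Fos and Nr4a1 along the distance from the first base of each cluster (kb), with 1 row per list, a block where that list had a peak and colour for the pile-up of the region relative to the median highest pile-up of the list. Fos has 3 blocks in every row, while 4xIOP 3 has 1 of 9 at Prph2 and regions 4 and 5 at Nr4a1 appear in control 1 and control 2 alone.

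The highest relative pile-up was not at a gene of these lists. By the mean over 6 lists, which was looked up after the values were seen, the cluster inside Tmem267 led at 2.44, with 73.8% of its bases repeat-masked. It had 2.24, 3.21 and 1.22 in control and 1.94, 1.72 and 4.31 in 4xIOP, so that control 1, control 2 and 4xIOP 3 were again above the other lists. The cluster nearest to 1700001O22Rik was next at 2.18, with 2.37, 2.40 and 1.95 in control and 2.11, 2.04 and 2.2 in 4xIOP, and divided the lists in that way too. Then came clusters nearest to Pias1, which encodes a SUMO ligase, at 2.00, Sec22a at 1.98 and Optn at 1.89. Optn encodes optineurin, a protein of selective autophagy whose gene is mutated in some inherited glaucoma. Its cluster of 3 regions lay 16.4 kb upstream, with 1.86, 1.90 and 1.73 in control and 2.06, 2.06 and 1.74 in 4xIOP. Those groups overlapped at 4xIOP 3. Over the 366 clusters the mean ran from 0.31 to 2.44, and the median SD over the 6 lists was 0.13.

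At the other end stood clusters built from few calls. In 13 clusters every region was called in 2 lists, the fewest the rule allows. The 3 of these first in genome order were a pair inside Camk1d, a gene for a calcium-dependent kinase, and 1 inside A930004D18Rik. None of their regions was called in all 6 lists. Every region of the 3 clusters was called in control 3, and 1 in each was called in control 2. These clusters rest in large part on control 3, the longest list. Without control 3 the rule found 322 clusters, against 447 to 498 when another list was left out.

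Whether recurring IOP changed the clusters was asked first by the share of regions called. Cluster regions had a peak in 66.2%, 61.2% and 94.1% of cases in control 1, 2 and 3, and in 57.9%, 65.5% and 38.1% in 4xIOP 1, 2 and 3. The means were 73.9% ± 17.7 and 53.8% ± 14.2 (SD, n = 3), a difference of -20.0 percentage points (exact permutation test, two-sided, p = 0.2, adjusted p = 0.6 over 6 comparisons). The same calls chose these regions, so the test cannot decide whether recurring IOP changed them. With every list cut to its 16195 peaks of highest fold and the clusters rebuilt, the difference turned to 3.49 points (exact permutation p = 0.6). With 3 lists against 3 the smallest p is 0.1, so no single value could pass 0.05. The highest and the lowest share belonged to control 3 and 4xIOP 3, and without them the groups lay between 57.9% and 66.2%. Other distal regions differed by -17.2 points and TSS-near regions by -11.1 points in the same lists. List length thus moved with all 3 kinds of region, and its part in the difference was not tested.

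**Figure D5:**
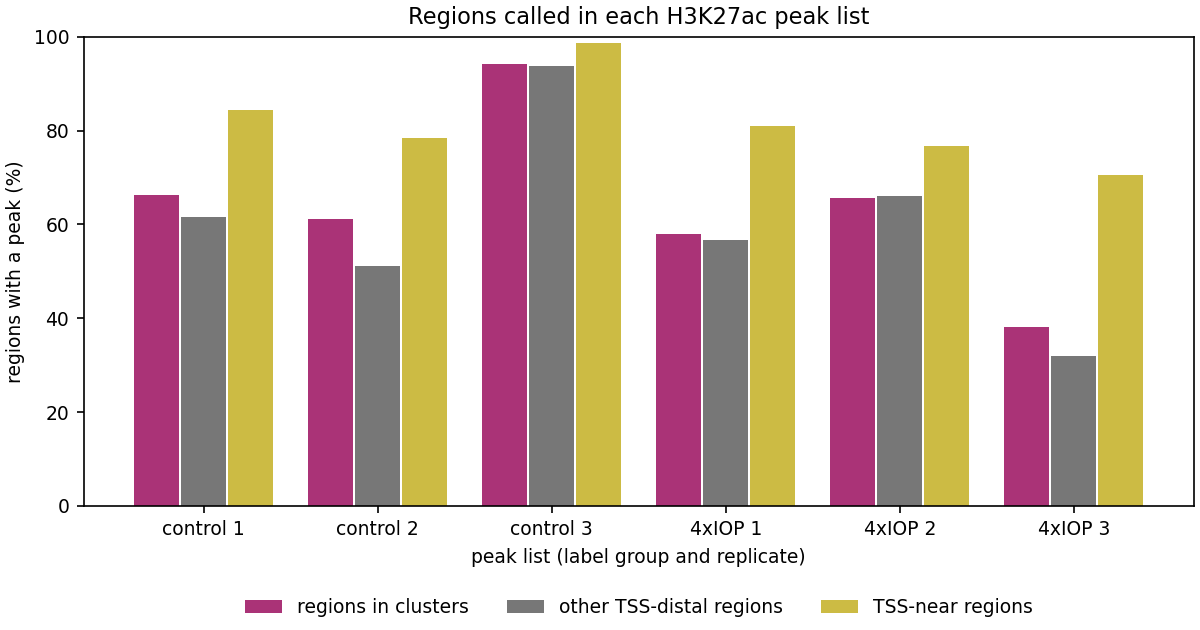
Percentage of regions with a peak (vertical axis) in each of the 6 lists for regions in clusters, other TSS-distal regions and TSS-near regions. Control 3 is highest and 4xIOP 3 lowest for all 3 kinds of region, with 94.1% and 38.1% of cluster regions called.

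The other 5 summaries did not pass the test, nor could they at this size. The calls that chose the clusters enter all 5, so these tests cannot decide whether the clusters changed. Clusters with at least 1 peak made up 96.5% ± 3.00 in control and 89.1% ± 10.1 in 4xIOP (SD, n = 3, difference -7.43 points, exact permutation p = 0.3), and the difference was -1.65 points without 4xIOP 3 and 4.76 points with lists of equal length. Of all 534 clusters, 120 lacked a peak in 4xIOP 3 and 3 in control 3, with 18 to 35 in each of the other lists. Marked length within clusters was 667 ± 250 kb in control and 445 ± 172 kb in 4xIOP, with overlapping lists (difference -222 kb, n = 3, exact permutation p = 0.5). That difference was -79.7 kb without control 3, -127 kb without 4xIOP 3 and -1.53 kb with lists of equal length (exact permutation p = 0.9 in each). Clusters took 5.67% ± 0.564 of the peaks in control and 5.43% ± 0.765 in 4xIOP (n = 3, exact permutation p = 0.7). They took 20.9% ± 1.24 and 20.4% ± 1.61 of the distal peaks (n = 3, exact permutation p = 0.5). By list that share was 20.6%, 22.3% and 19.9% in control and 19.6%, 19.3% and 22.2% in 4xIOP, so the 3 lists that carry the name of the pressure group inside them lay above the other lists, and no test was run on that division. The last measure was the median highest pile-up of cluster regions called in all 6 lists, not of whole clusters. It was 24.0 ± 8.93 in control and 20.5 ± 5.97 in 4xIOP (n = 3, exact permutation p = 0.5). Its difference of -3.52 turned to 1.07 without control 3 and was -0.091 without 4xIOP 3 (exact permutation p = 0.9 in each). All adjusted p were 0.6 or 0.7.

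Regions marked in 1 group alone were next counted. Of the 1859 cluster regions 39 (2.10%) had a peak in each of the 3 control lists and were missing from every 4xIOP list, while 1.05% of all merged regions were so called. In the other direction 0 cluster regions had a peak in each 4xIOP list and were missing from every control list, against 0.015% of all merged regions (6 of 39942). Other distal regions gave 168 (2.24%) and 2, a share close to that of the clusters. The 39 regions lay in 38 clusters, among them those nearest to Tulp1, Prom1, Chd2 and Gm47283. No whole cluster was confined to 1 group. With each list cut to its 16195 peaks of highest fold, the rule left 63 clusters of 210 regions, of which 0 were marked in control alone and 2 in 4xIOP alone. Over all 26777 merged regions of that setting the counts were 148 and 78.

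Fold ranks were then compared where every list had a value. A fold rank is the place of a peak among all peaks compared in its list, written as a normal score. Limma called 0 of 1719 stitched units at an adjusted p of 0.05 (0%), and so 0 of the 366 clusters among them, with a lowest adjusted p of 0.97. At an unadjusted p under 0.05 there were 75 units (4.36%) and 14 clusters (3.83%), 9 higher and 5 lower in 4xIOP. Groups did not overlap for 20 clusters that were higher in 4xIOP (5.46%), against 4.25% of all units, and for 16 that were lower (4.37%), against 5.88%. Single regions gave the same count. Limma called 0 of 10529 regions (0%), 426 of them in clusters, and 334 (3.17%) had an unadjusted p under 0.05, 6 of those in clusters (1.41%). Groups did not overlap for 28 cluster regions that were higher in 4xIOP (6.57%), against 4.31% of all regions, and for 12 that were lower (2.82%), against 4.05%. In simulated data of this size 91% of stitched units shifted by 2 score units were called and 22% of those shifted by 1. For single regions 75.5% and 0% were called, so shifts of about 1 could be missed.

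Clusters with the smallest limma p are given by name, though all had an adjusted p of 0.97. Higher in 4xIOP were those nearest to Hist1h2ba, Map1b, Ankrd33b, Tulp1 and Cerkl. On the scale of fold percentile within a list, Tulp1 had 26.2, 23.6 and 31.1 in the control lists. In the 4xIOP lists it had 34.9, 44.4 and 36.7, so the groups did not overlap (limma score difference 0.76, SE 0.27). Map1b, which encodes a microtubule-binding protein of neurons, stood at 37.4, 11.2 and 40.7 in control. In 4xIOP it stood at 54.0, 45.2 and 39.9, and control 3 passed 4xIOP 3 on this scale (score difference 0.99, SE 0.35). Lower in 4xIOP were those nearest to Bbs7, Smim13, Atp8a2, Exoc3 and Scn4a. Bbs7 encodes a subunit of the BBSome, a carrier of cilium proteins. In control its fold percentile was 38.0, 46.4 and 56.8. It was 19.2, 13.4 and 10.8 in 4xIOP, again without overlap (score difference -0.96, SE 0.28). On the relative pile-up scale the Bbs7 cluster was at 1.82, 1.75 and 1.44 in control and 1.49, 1.46 and 1.31 in 4xIOP, where the groups met. Over the 12 tested clusters at photoreceptor-list genes 7 had a positive score difference, with a median of 0.16, and 191 of all 366 clusters did, with a median of 0.02.

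In 200 bp windows, motif shares in cluster regions lay within 1 percentage point of those in other distal regions for 12 of 13 motifs, and TAATCC was less frequent in clusters. In 400 bp windows the E-box CAGCTG and the motifs TGANTCA and ACAAAG also differed by more than 1 point. No test was run on them. The 200 bp around each median summit were searched on both strands for 13 short motifs. TAATCC, the core bound by CRX, was found in 108 cluster windows (5.81%), in 7.71% of other distal windows and in 3.21% of TSS-near windows. TGCTGA, an arm of the site of NRL and MAF factors, was in 18.6%, 18.9% and 11.0%. The E-box CAGATG was in 15.4%, 15.6% and 8.00%, and the E-box CAGCTG in 15.2%, 15.0% and 10.8%. TGANTCA, a looser form of the AP-1 site, which has C or G in place of N, was in 5.59%, 5.40% and 2.40%. AGGTCA, a nuclear receptor half-site, was in 15.2%, 14.4% and 8.92%. The GC-rich GGGCGG was in 7.05% and 7.70% of distal windows and in 38.0% of TSS-near windows. The remaining motifs were TAATTA (2.74% and 2.91%), TAAAAATA (1.08% and 1.50%), TTGCNNAA (6.78% and 6.61%), ACAAAG (14.7% and 15.1%), an NF-kB site (1.40% and 1.14%) and the palindromic NFI site (0% and 0.013%), each given for cluster and other distal windows. TAATCC and TAATTA share the letters TAAT, and TGCTGA can overlap TGANTCA in its last letters.

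In the 57 regions of the 15 clusters nearest to photoreceptor-list genes, TAATCC was in 4 windows (7.02%) and TGCTGA in 14 (24.6%). Windows of the 4 clusters nearest to AP-1 and early response genes numbered 17, and 1 of them (5.88%) held TGANTCA. Printed windows show such matches. The Prkca window holds TGCTGA on each strand, and the Btg2 window holds TGANTCA, with T at N and so not the AP-1 site itself, beside CAGCTG. A match shows only that the letters are in the window.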

How the data were processed

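H3K27ac ChIP-seq peaks of 6 retina samples were used, 1 list each. The deposited lists have 10 columns in narrowPeak form and no header. Per the file layout the authors deposited a score, a fold (ratio) of summit over local background, -log10 p and -log10 q for each peak, and the summit offset. The submitters' processing notes name STAR 2.7.8a, MACS2, HOMER, edgeR, bedtools 2.29.2 and mm10, without roles. No input library is evident in the values. Lists were called per sample, and the lowest -log10 q was 1.31 to 1.40. Summit fragments were recovered from fold and p as whole numbers, within 0.001 in 100% of peaks. Library totals were not used here, so depth is known only through the background, whose genome mean was 2.01 to 3.38 fragments. No interval is given for peak values because the lists hold only values above a threshold.

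Members and gene lists were chosen with earlier results of these data known. Clusters were built in Python 3.11.15 with the GENCODE vM21 basic annotation, and a region was called in a list at 1 bp of overlap. Named clusters were the 12 with most regions, up to 4 per gene list, the 5 per direction with the smallest limma p and the 3 in the fewest lists. Groups were compared by two-sided exact permutation tests and, for normal scores of fold ranks, by limma 3.58.1 with Benjamini-Hochberg adjustment over all regions or units in all 6 lists, tested on simulated data. Per the study's methods 1 eye of each animal was treated and the other was its control. The study gives fewer biological replicates for its H3K27ac profiles than the 3 a group labelled here. Samples of a group are taken to be separate animals, which the labels do not state. Printed windows avoid annotated untranslated exons. Sequences and the masked share come from the RefSeq GRCm38.p6 sequence. Some items are not reported here.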

Additional observations from a re-analysis of the deposited data

How the results depend on the processing

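The number of clusters depended on the rule, and rose to 730 with a gap of 20 kb and to 677 with protein-coding TSSs only. It was 438 with a TSS distance of 5 kb. It was 192 with a -log10 q of at least 5, 63 with the 16195 peaks of highest fold in each list, 246 with a gap of 5 kb, 249 with regions in 3 or more lists and 153 with 4 or more regions per cluster, and it ran from 322 (without control 3) to 498 without 1 list. Differences from control kept their sign under most settings. With the strongest peaks they turned to 0.051 percentage points for the share of peaks, 0.16 for distal peaks, 4.76 for clusters with a peak and 3.49 for regions called. With regions in 3 or more lists the share of peaks turned to 0.11. Leaving out 1 list gave -0.593 (without 4xIOP 2) to 0.17 (without 4xIOP 3) for the share of peaks, -1.45 (without 4xIOP 3) to 0.16 (without control 2) for distal peaks and -7.85 (without control 2) to 1.07 (without control 3) for median pile-up. It gave -11.0 (without 4xIOP 2) to -1.65 (without 4xIOP 3) points for clusters with a peak, -315 (without control 2) to -79.7 kb (without control 3) for covered length and -26.3 (without control 2) to -9.87 points (without control 3) for regions called. The distal share also turned without 4xIOP 2, to 0.0018. Between control 3 and 4xIOP 3, the lists named as their labels, the differences were 2.38 points of distal peaks, -21.9 points of clusters with a peak, -56.1 points of regions called, -694 kb and -19.6 in pile-up, with 1 list a group and no test. Regions marked in control alone numbered 12 at the stricter q, 0 with the strongest peaks and 65 (without 4xIOP 3) to 169 (without control 2) without 1 list, and those in 4xIOP alone numbered 2 with the strongest peaks and 0 (without control 1) to 7 (without control 3). With a list left out fewer lists have to hold or lack a peak, so more regions meet the condition. Within 50 kb in place of 100 kb, 3 photoreceptor factors, 5 rod genes, 0 NF-kB genes and 848 of all genes were near. In windows of 400 bp the difference of clusters from other distal regions went from -0.33 to -2.19 points for ACAAAG, from 0.20 to -1.225 for CAGCTG, from 0.20 to 1.295 for TGANTCA and from -1.90 to -2.50 for TAATCC. Except for the counts with fewer lists, the cause of these changes was not tested.

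Limma called 0 clusters and 0 cluster regions under the 12 alternatives it was run with, and was not run on clusters built with another gap, TSS rule, list count or region count. In those 12 the lowest adjusted p of a cluster ran from 0.15 (stricter q) to 1.00. Replicate numbers are shared between groups, and whether the same number means the same animal is not stated. Same-numbered lists correlated at -0.021, -0.057 and -0.146 over regions in their deviations from group means. These values cannot decide pairing, because a division of the lists by the names inside them also sets same-numbered lists apart. With the replicate block limma again called 0, and the exact p for regions called was 0.5, where 0.25 is the smallest possible. With the change in other kept regions subtracted, an alternative added after seeing the data, regions called differed by -2.82 points (exact permutation p = 0.6).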
